A study of Mus musculus with 195 samples.

Results

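The genes described here are 10 members of the SR family of splicing factors, Srsf1, Srsf2, Srsf3, Srsf4, Srsf5, Srsf6, Srsf7, Srsf9, Srsf10 and Srsf11, taken as a list of names from the 19736 mouse genes in the table of molecules per gene. All 10 were in that table and in the table of polyadenylation (PA) sites. The study sequenced single G1 cells with BATSeq, in which each count is 1 mRNA molecule placed by the 3′ end of its poly(A) tail. ESC-2i were mouse embryonic stem cells of the 46C line, which carries GFP at Sox1, kept without serum in 1 μM PD0325901 (a MEK inhibitor), 3 μM CHIR99021 (a GSK3 inhibitor) and 10 ng/ml LIF. ESC-FCS were embryonic stem cells kept in 10% serum with 10 ng/ml LIF, and NSC were neural progenitors derived from embryonic stem cells and kept in N2 and B27 with the growth factors EGF and bFGF. By the study's methods all populations go back to the 46C line, and the neural cells were sorted once for GFP during their derivation. Each population had 48 cells, of which the gene table kept 33 ESC-2i, 33 ESC-FCS and 41 NSC cells, the ones used here. A further 48 ESC-FCS control cells (42 used), 1 pool of 48 ESC-FCS cells and 2 pools of 48 ESC-2i cells were sequenced separately. The cells of a population came in 2 batches with a barcode each, and batch numbers only name a batch within its population and pair nothing. The labels name no replicate culture, so each population counts as 1 sample, no test between populations was made, and every interval covers counting error only.

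SR proteins carry an RNA recognition motif and a domain rich in arginine and serine. They bind exonic enhancers in pre-mRNA, help the spliceosome to choose its splice sites, and several of them travel with the mRNA to the cytoplasm and hand it to the export receptor Nxf1. Their own pre-mRNAs are known for conserved poison exons, whose inclusion leads to decay of the transcript, and some members are known to affect which PA site a transcript uses.

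The used cells of ESC-2i held 5342 to 21049 molecules on genes, with a median of 10864. Those of ESC-FCS held 1079 to 14819 (median 6375), and NSC cells 1234 to 9037 (median 3282). The 8 embryonic stem cell markers summed to 29.6 molecules per 10000 in ESC-2i and 18.7 in ESC-FCS, but to 0.132 in NSC, where 6 of 8 were at 0. The 8 neural stem cell markers summed to 1.87, 1.19 and 52.7 per 10000. Of the other lists, 4 neuron markers summed to 2.71, 5.07 and 4.35 per 10000, carried by Stmn2 in the embryonic populations (93 and 100 molecules, 0 in NSC) and by Map2 in NSC (59 molecules, 0 in ESC-2i and 6 in ESC-FCS), and 3 astrocyte, 4 primitive endoderm and 3 fibroblast markers summed to at most 0.543 in any population. All 48 ESC-2i cells shared their pair of batch and cell barcodes with an ESC-FCS control cell, so those control cells are not pooled with the ESC-FCS cells. Their batches are counted among the serum libraries and serum cells below.

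The 10 genes together had 809 molecules in ESC-2i, or 22.0 per 10000 molecules on genes (exact Poisson 95% interval 20.5 to 23.5). They had 696 in ESC-FCS, or 30.7 (28.5 to 33.1), and 480 in NSC, or 31.6 (28.8 to 34.6). The single cells of ESC-2i were thus the lowest relative to other mRNA, and the intervals of ESC-FCS and NSC overlapped. The ESC-2i pools were higher than the ESC-2i cells, with 26.3 and 31.3 per 10000, and pool 2 lay above both batches of ESC-FCS cells (30.9 and 30.5). The batches of ESC-FCS control cells, at 43.4 and 39.6, and the ESC-FCS pool, at 40.9, lay above both ESC-2i pools. Per cell the order was another one, with 24.5 molecules in an ESC-2i cell, 21.1 in an ESC-FCS cell and 11.7 in an NSC cell, since cells of the 3 populations also differed in their total. Spike-in (ERCC) molecules per cell differed as well, at 957, 286 and 390, and per 1000 of them the SR genes had 25.6, 73.8 and 30.0 molecules, so on that scale ESC-FCS was the highest. Every one of the 107 cells held at least 1 SR molecule, and the lowest, median and highest cell had 5, 24 and 59 molecules among ESC-2i, 3, 19 and 52 among ESC-FCS, and 1, 10 and 35 among NSC.

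Since 1 molecule gives 1 count whatever its length, levels of different genes can be set side by side. Srsf3, the smallest SR protein and an adaptor for mRNA export, was the highest member in the cells of each population, with 5.24 molecules per 10000 in ESC-2i (4.53 to 6.03). It had 7.54 in ESC-FCS (6.46 to 8.76) and 7.44 in NSC (6.13 to 8.95). Srsf6, a splicing activator with a pair of RNA recognition motifs, came next with 4.13 (3.50 to 4.84), 4.72 (3.87 to 5.70) and 5.53 (4.41 to 6.85). Srsf3 exceeded Srsf6 by 1.27-fold in ESC-2i (exact interval 1.02 to 1.58), by 1.60-fold in ESC-FCS (1.25 to 2.05) and by 1.35-fold in NSC (1.01 to 1.81). The pools did not share this order. In the ESC-2i pools Srsf6 had 7.84 and 8.39 molecules per 10000, against 3.98 and 4.73 for Srsf3. In the ESC-FCS pool Srsf1 had 7.65 and Srsf7 7.42, against 7.03 for Srsf3. Srsf4, the member with the longest arginine-serine domain, was the lowest in ESC-FCS at 0.441 (0.212 to 0.811) and in NSC at 0.461, on 7 molecules, and Srsf10 was the lowest in ESC-2i at 0.353 (0.188 to 0.603). In between, most neighbours could not be ordered. Of 9 neighbouring pairs, 3 of ESC-2i had a ratio whose interval lay above 1, as had 3 of ESC-FCS and 2 of NSC.

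**Figure D1:**
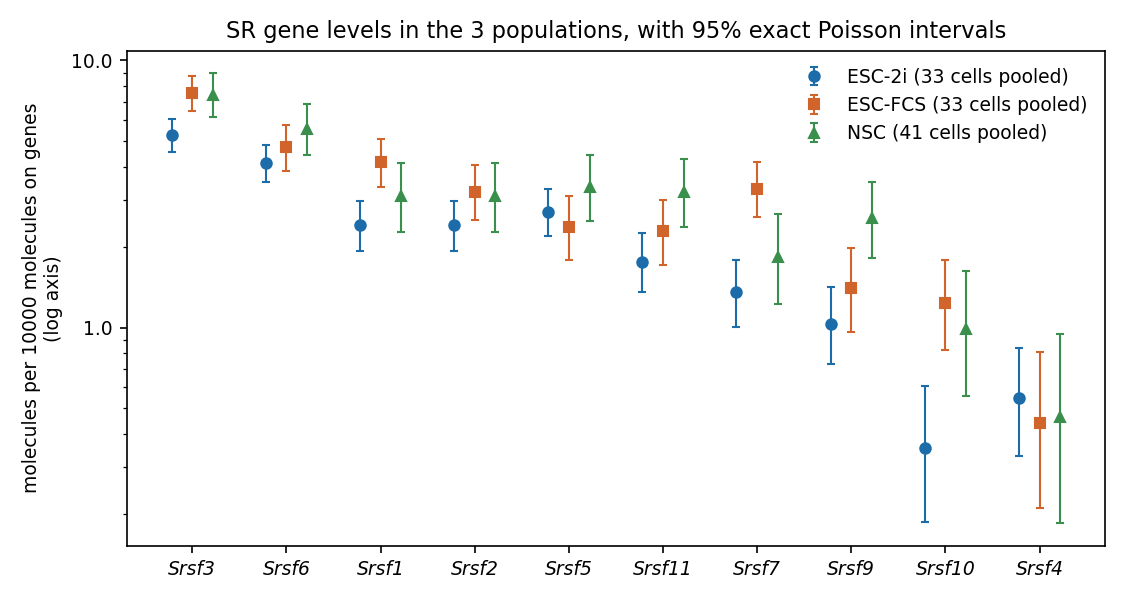
Levels of the 10 SR genes as molecules per 10000 molecules on genes (log axis) in the populations, with points for the pooled cells of a population and bars for exact Poisson 95% intervals. Srsf3 was highest and Srsf4 or Srsf10 lowest in each population, and Srsf7 and Srsf10 had the widest gaps between ESC-2i and ESC-FCS.

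The comparison of the 2 media asked which SR genes differed between ESC-FCS and ESC-2i. By a fixed size of at least 1.5-fold, 3 of the 10 genes were higher in ESC-FCS and 0 were lower, where 21.0% of 6063 genes with at least 20 molecules were higher, 27.2% lower and 48.1% either by the same rule. The median log2 ratio of the 10 genes was 0.43, against -0.06 over those 6063 genes. A count of 3 of 10 is near that share of higher genes. Srsf7, an export adaptor with a zinc knuckle, had 3.31 molecules per 10000 in ESC-FCS (2.60 to 4.15) and 1.36 in ESC-2i (1.01 to 1.79), a ratio of 2.44 (exact conditional binomial interval 1.68 to 3.56). Srsf10, which represses splicing when it loses its phosphates, had 1.24 (0.821 to 1.79) and 0.353, a ratio of 3.50 (1.75 to 7.36) that rested on 28 and 13 molecules. Srsf1, the founding member of the family, had 4.15 (3.35 to 5.07) and 2.42 (1.94 to 2.97), a ratio of 1.72 (1.27 to 2.32). The other 7 genes had ratios from 0.813 for Srsf4 to 1.44 for Srsf3.

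The library batches and the separate libraries tell how far these ratios repeat. Srsf7 had 0.975 and 1.70 molecules per 10000 in the 2 batches of ESC-2i cells and 1.17 and 1.31 in the 2 ESC-2i pools. In serum it had 3.07 and 3.63 in the batches of ESC-FCS cells, 6.47 and 4.86 in those of the control cells and 7.42 in the ESC-FCS pool. All 5 ESC-FCS values lay above all 4 ESC-2i values. Srsf10 had 0.229 and 0.464 in the batches of ESC-2i cells, 0.647 and 0.849 in the ESC-2i pools, and 1.17 to 1.69 in the 5 serum libraries, again without overlap. Between the pools alone the ratio of Srsf10 was below the fixed size against ESC-2i pool 2, at 1.38. Srsf1 overlapped. It reached 4.25 and 5.58 in the ESC-2i pools, against 2.18 and 2.63 in ESC-2i cells and 3.22 to 7.65 in the serum libraries, and batch 2 of both populations gave a ratio of 1.22.

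In other members the ESC-2i pools stood apart from the ESC-2i cells, while the ESC-FCS pool lay within the range of the other serum libraries. Srsf5, a member known for its quick response to serum and insulin, had 2.52 and 2.89 molecules per 10000 in the batches of ESC-2i cells but 0.459 and 0.788 in the ESC-2i pools, and 2.03 to 2.59 in the 5 serum libraries. Srsf9, a small member with a short arginine-serine domain, had 1.03 in both batches of ESC-2i cells but 3.88 and 3.07 in the ESC-2i pools, with 2.23 in the ESC-FCS pool and 0.830 to 3.05 in serum cells. Srsf6 had 4.07 and 4.18 in those cells and 7.84 and 8.39 in the ESC-2i pools, with 4.80 in the ESC-FCS pool and 4.67 to 7.14 in serum cells. For these 3 genes the kind of library, a pool or single cells, moves with the level within ESC-2i, and its part in the result was not tested.

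**Figure D2:**
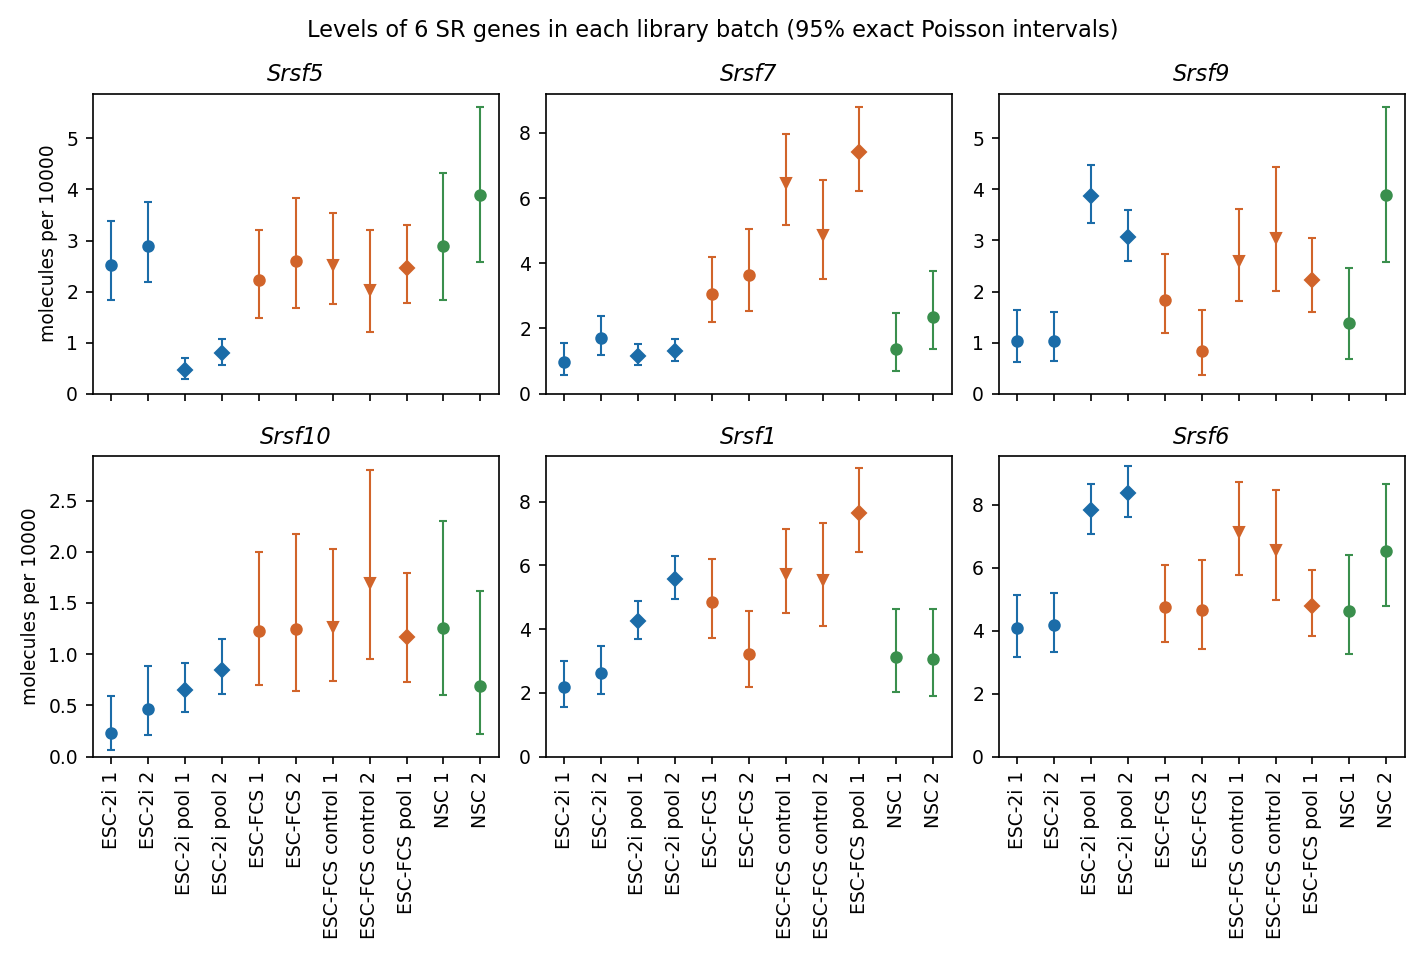
Levels of 6 SR genes (molecules per 10000 molecules on genes) in each of the 11 library batches, with exact Poisson 95% intervals. Circles are batches of the 3 populations, triangles ESC-FCS control cells and diamonds pools of 48 cells. The serum libraries lay above the ESC-2i libraries for Srsf7 and Srsf10, while Srsf5, Srsf6 and Srsf9 separated the ESC-2i pools from the ESC-2i cells.

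The comparison of NSC with ESC-2i asked how the genes differed between neural and embryonic stem cells. In NSC 3 of the 10 genes were at least 1.5-fold higher and 0 lower, where 30.3% of all genes tested were higher, 35.1% lower and 65.4% either. The median log2 ratio of the 10 was 0.43, against -0.08 over all genes tested. The 3 were Srsf9 at 2.57 against 1.03 molecules per 10000, a ratio of 2.49 (1.55 to 4.00), Srsf10 at 0.988 against 0.353, a ratio of 2.80 (1.24 to 6.39), and Srsf11 at 3.23 against 1.76, a ratio of 1.83 (1.24 to 2.69). With batches of the same number set against each other, an arbitrary pairing, none of the 3 passed the fixed size in both. Srsf9 had a ratio of 1.34 in batch 1, and in batch 2 Srsf10 had 1.49 and Srsf11 1.02. Both batches of NSC lay above both batches of ESC-2i cells for each of the 3. Srsf9 had 1.38 and 3.88 against 1.03 in both, and Srsf10 had 1.25 and 0.694 against 0.229 and 0.464. Srsf11 had 4.14 and 2.22 against 1.32 and 2.17. The ESC-2i pools, at 3.88 and 3.07, lay above the pooled NSC cells for Srsf9, and per ERCC molecule the ratio of Srsf11 was 1.49. For Srsf10 the ESC-2i pools had 0.647 and 0.849, so pool 2 lay above batch 2 of NSC. Srsf11 is a member of the family that interacts with the splice site recognition factors U2af and U1 snRNP. Against ESC-FCS, 1 gene was higher in NSC and 1 was lower, where 29.7% of all genes tested were higher, 32.8% lower and 62.6% either. The median log2 ratio of the 10 genes was 0.02 in this comparison, against -0.01 over all genes tested. Srsf9 was higher by a ratio of 1.82 (1.11 to 3.00) and Srsf7 had a ratio of 0.557 (0.347 to 0.871), with 1.84 against 3.31 molecules per 10000. The ratio of Srsf9 depended on the batch. The batches of NSC had 1.38 and 3.88 and those of ESC-FCS 1.84 and 0.830, so batch 1 of NSC against batch 1 of ESC-FCS gave a ratio of 0.748. The batches of NSC also differed for Srsf11, at 4.14 and 2.22, and for Srsf2, at 4.14 and 1.94. Both comparisons of NSC use the same NSC cells, and both comparisons with ESC-2i use the same ESC-2i cells.

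Of 25 other genes of the SR pathway, 23 had enough molecules. Against ESC-2i, 8 were at least 1.5-fold higher in NSC and 5 lower, so 56.5% passed in either direction. Against ESC-FCS 9 were higher and 3 lower, or 52.2%. Both shares were below those of all genes given above. In both comparisons 4 were higher and 3 lower, where 20.9% of all genes tested were higher in both and 25.9% lower in both, so these counts of 23 are no larger than the background. Srpk2, a kinase that phosphorylates SR proteins in the cytoplasm, had 0.922 molecules per 10000 in NSC, 0.407 in ESC-2i and 0.485 in ESC-FCS. Clk4, a nuclear kinase of SR proteins, had 0.593, 0.190 and 0.265, on 9, 7 and 6 molecules. Snrnp70, the U1 snRNP protein that SR proteins contact, had 1.05, 0.652 and 0.485, and Luc7l3, another protein linked to U1 snRNP, had 2.70, 1.71 and, on 34 molecules, a ratio of 1.80 against ESC-FCS. Lower in NSC were U2af1, the small subunit that reads the 3′ splice site, at 0.593, 1.79 and 1.10, Srrm2, a scaffold of nuclear speckles, at 0.527, 0.977 and 0.971, and Acin1, a protein of the exon junction complex, at 0.593, 0.923 and 0.926. Except for Luc7l3 in both comparisons, Srpk2 and Clk4 against ESC-2i and U2af1 against ESC-2i, the intervals of these ratios included 1. ESC-FCS against ESC-2i gave 2 higher and 4 lower, or 26.1%, where 21.0% of all genes tested were higher, 27.2% lower and 48.1% either.

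Most molecules of the SR genes lay at a few PA sites. The 1985 molecules lay at 94 positions, and the 24 sites with at least 10 molecules held 1853 of them (93.4%). Of these 24 sites, 23 lay in a 3′ UTR of the gene and 14 within 10 nt of an annotated transcript end (GENCODE M21, build GRCm38, the build of the alignments). Srsf4 and Srsf9 had 1 such site and the other 8 genes several, with 7 in Srsf3. Srsf10 was the most scattered gene, with 17 positions for 56 molecules, of which its 2 sites of that size held 57.1%.

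The sites of Srsf7, Srsf6, Srsf1 and Srsf2 are shown by the 30 bases that end at the site, from GENCODE M21 transcripts, 5′ to 3′. The polyadenylation signal AATAAA or its variant ATTAAA is in capitals.
Srsf7 proximal, chr17:80201314-80201343, minus strand: tttgacacgtttaAATAAAatgtttctaac
Srsf7 distal, chr17:80200085-80200114, minus strand: tttgttcAATAAAtctgcagagattgaaca
Srsf6 site 1, chr2:162935176-162935205, plus strand: agttatgtaagatttaAATAAAagtttgct
Srsf6 site 2, chr2:162935315-162935344, plus strand: ctcagaccagcAATAAAttattcagtttgg
Srsf6 site 3, chr2:162937086-162937115, plus strand: tatgctttatctcAATAAAatgcttaccaa
Srsf1 proximal, chr11:88051452-88051481, plus strand: gccgtttttctttgaaaaaAATAAAcattt
Srsf1 distal, chr11:88053722-88053751, plus strand: gggagtgAATAAAaagctgttaatttggaa
Srsf2 proximal, chr11:116850637-116850666, minus strand: tttgtttgaaATTAAAcagattggtaacct
Srsf2 distal, chr11:116849916-116849945, minus strand: tgtagtttgATTAAAgtgttttcttggtgt
All 3 sites of Srsf6 and both of Srsf7 and of Srsf1 carried the letters AATAAA, and both sites of Srsf2 carried ATTAAA. In the 40 bases up to the site, on the strand of the gene only, AATAAA stood at 16 of the 24 sites and ATTAAA without AATAAA at 6. Over all genes, 8020 sites of at least 10 molecules could be placed in a transcript, and AATAAA stood at 66.1% of them and ATTAAA alone at 15.6%. The sites of SR genes without either were the single site of Srsf9 and the upstream site of Srsf11.

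For each gene the most used site and the most used further site at least 50 nt away gave a distal share, the percentage of the molecules at both that ended at the downstream site. A difference of at least 10 percentage points was called where both populations had at least 20 molecules at the 2 sites together, which held for 8 of the 10 genes. Srsf4, with 37 molecules in all, and Srsf10 had too few molecules. The distal share was at least 10 points higher in NSC than in ESC-2i in 3 of 8 genes and lower in 0, where 13.6% of 957 genes were higher and 4.28% lower. Against ESC-FCS it was higher in NSC in 2 of 8 and lower in 0, where 11.6% of 854 genes were higher and 5.27% lower. Either direction passed in 17.9% and 16.9% of genes. Between ESC-FCS and ESC-2i 0 of 8 passed, where 9.63% of 1506 genes were higher in ESC-FCS, 5.18% lower and 14.8% either. The median difference of the 8 genes was 4.23 points for NSC minus ESC-2i, 2.40 for NSC minus ESC-FCS and 1.87 for ESC-FCS minus ESC-2i, against 0.568, 0 and 0.0225 over all genes tested.

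Srsf7 had the largest shift of these 8 genes. Its proximal site, 234 nt after the stop codon, and its distal site, 1463 nt after it, split 40 to 9 molecules in ESC-2i and 60 to 15 in ESC-FCS, but 13 to 13 in NSC. The distal share was 18.4% in ESC-2i (exact binomial interval 8.76 to 32.0) and 20.0% in ESC-FCS (11.6 to 30.8), but 50.0% in NSC (29.9 to 70.1). The intervals of NSC and the embryonic populations still overlapped. The 13 distal molecules of NSC came from 10 cells with at most 2 in a cell, so no single cell carried the share. Of the 17 NSC cells with a molecule at either site, 7 had proximal molecules only, 6 distal only and 4 both. Of 23 cells each, ESC-2i had 14, 2 and 7 and ESC-FCS 13, 0 and 10. These counts are not compared between populations, since NSC had 26 molecules at the sites against 75 in ESC-FCS. By batch, the distal site held 45.5% and 47.1% of the gene's molecules in NSC, 23.5% and 15.2% in ESC-2i, and 12.5% and 28.6% in ESC-FCS. It held 12.6% and 11.6% in the control cells and 14.3% in the ESC-FCS pool. The ESC-2i pools had 19.6% and 40.0% (28.0 to 52.9), so the interval of pool 2 held both NSC values.

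Srsf6 had 3 sites, and its pair of most used sites, 139 nt apart, differed by 10.8 points between NSC and ESC-2i, from 47.5% (39.1 to 56.1) to 58.3% (44.9 to 70.9). That difference was within the intervals, and the ESC-2i pools, at 67.4% and 68.6%, lay above NSC, which turns the direction. The batches of ESC-2i cells themselves differed more, since site 1 held 38.0% and 58.0% of the gene's molecules in them. Site 3 lies 1910 nt after site 1 and makes a 3′ UTR of 2358 nt in place of 448 or 587 nt. It held 9 of 152 molecules in ESC-2i (5.92%, 2.74 to 10.9) and 14 of 107 in ESC-FCS (13.1%, 7.34 to 21.0), but 23 of 84 in NSC (27.4%, 18.2 to 38.2). The intervals of NSC and ESC-2i did not overlap. The 23 molecules of NSC came from 15 cells, with at most 3 in a cell. Both batches of NSC were near each other, at 27.0% and 27.7%, as were those of ESC-2i, at 7.04% and 4.94%.

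Site 3 of Srsf6 also separated the media in the separate libraries. It held 2 of 376 molecules (0.532%) and 8 of 415 (1.93%) in the ESC-2i pools. The batches of ESC-FCS cells had 9.68% and 17.8%, those of the control cells 22.9% and 25.9%, and the ESC-FCS pool 47.7% (36.8 to 58.7). All 5 ESC-FCS libraries lay above all 4 ESC-2i libraries, and the ESC-FCS pool also lay above both batches of NSC. The serum libraries differed among themselves by more than their counting intervals, since the interval of the pool lay above those of both batches of ESC-FCS cells. The pair described above left this site out. With sites at least 200 nt apart the pair of Srsf6 took it in, the distal share was 27.8 points higher in NSC than in ESC-2i and 18.1 points higher than in ESC-FCS, and the count for NSC against ESC-FCS went from 2 to 3 of 8.

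Srsf1 ended 68, 72 and 29 times at its proximal site in ESC-2i, ESC-FCS and NSC, 1875 nt after the stop codon, and 10, 15 and 11 times at its distal site, 4145 nt after it. The distal share was 12.8% (6.32 to 22.3), 17.2% (9.98 to 26.8) and 27.5% (14.6 to 43.9), so NSC passed the 10 points against both. The difference was seen in batch 1 of NSC. The distal site held 32.0% and 13.6% of the gene's molecules in the batches of NSC, against 7.89% and 13.7% in those of ESC-2i and 17.5% and 12.9% in those of ESC-FCS. In batch 2 of both the distal share of Srsf1 differed between NSC and ESC-2i by -0.556 points.

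**Figure D3:**
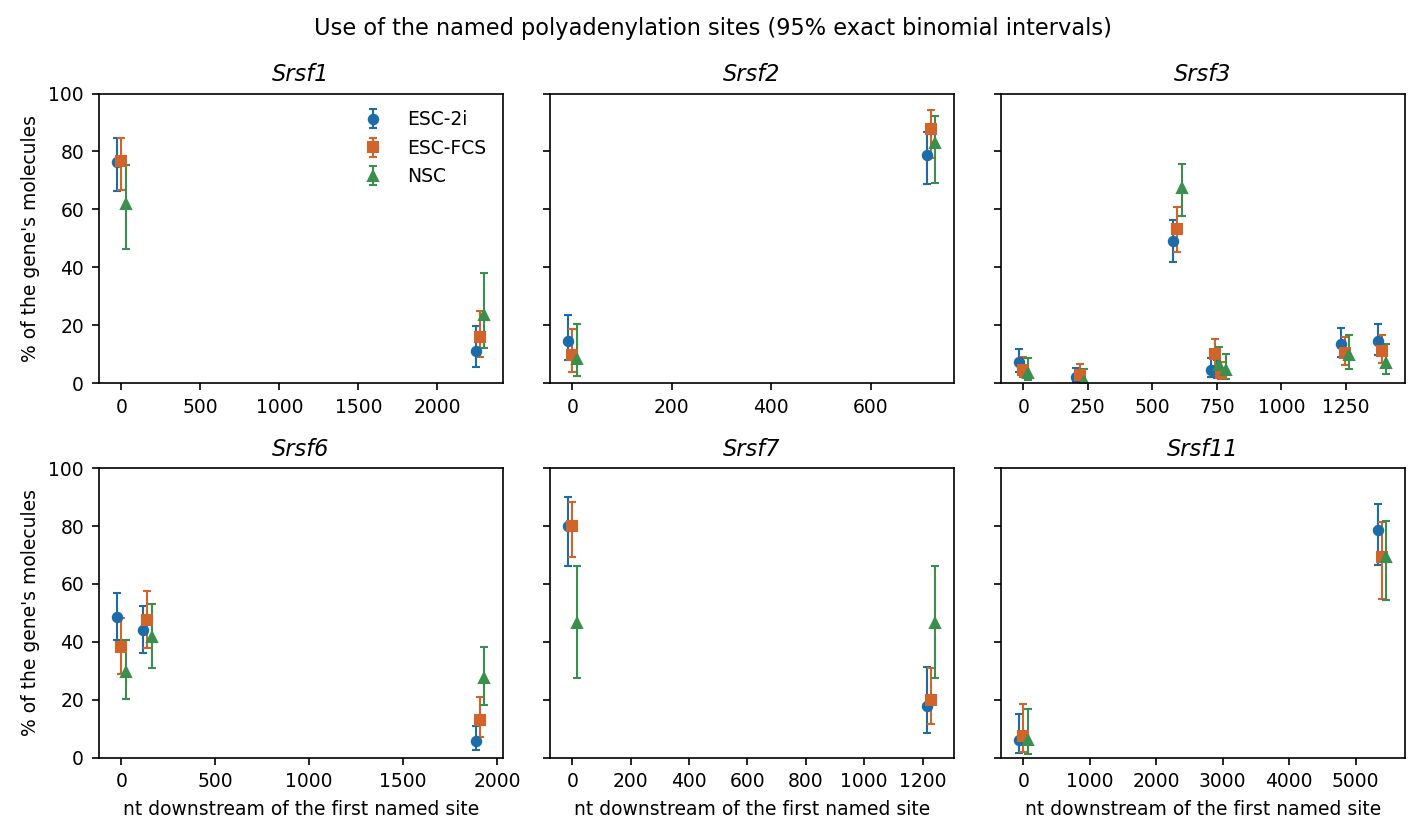
Percentage of each gene's molecules at its sites of at least 10 molecules, against the distance in nt downstream of the first such site, for 6 SR genes. Points are the pooled cells of a population and bars exact binomial 95% intervals. In Srsf7 and Srsf6 the most downstream site held 46.4% and 27.4% of molecules in NSC, above the pooled cells of both embryonic populations, with intervals that overlapped except for Srsf6 in NSC and ESC-2i.

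The distal share of the other 5 genes tested differed by less than 10 points in each comparison. Srsf2, which stays in nuclear speckles more than most members, had a distal share of 84.3%, 90.1% and 90.7%. Its batches differed more, with 94.6% and 76.1% in ESC-2i, 82.9% and 97.2% in ESC-FCS, and 100% and 69.2% in NSC. Srsf11 had a distal share of 92.7%, 90.0% and 91.9%, Srsf5 of 97.9%, 100% and 100%, and Srsf9 of 100%, 96.9% and 100%. The lesser site of the pair held just 2, 0 and 0 molecules in Srsf5 and 0, 1 and 0 in Srsf9. The distal shares of Srsf5 and Srsf9 could therefore hardly differ. In the pooled cells Srsf3 went the other way than Srsf7, with 21.5% (14.5 to 29.9), 16.5% (10.1 to 24.8) and 12.6% (6.48 to 21.5). These intervals overlapped, and the direction depended on the batch. By batch the distal share of Srsf3 was 29.8% and 16.2% in ESC-2i, 20.0% and 11.4% in ESC-FCS, and 6.38% and 20.0% in NSC. The main site of Srsf3, 680 nt after the stop codon, held 49.2% of its molecules in ESC-2i (42.0 to 56.5) and 53.2% in ESC-FCS (45.4 to 60.9), but 67.3% in NSC (57.8 to 75.8). Its 2 most downstream sites tied at 55 molecules each, so the upstream one of them entered the pair. At the main site the intervals of ESC-2i and NSC did not overlap. By batch the main site held 75.9% and 58.2% in NSC, 41.8% and 54.4% in ESC-2i, and 52.5% and 54.2% in ESC-FCS, while the ESC-2i pools had 61.3% and 44.9%. Srsf10 split 3 to 2, 5 to 11 and 7 to 4 between its 2 sites, which follow different stop codons, and had too few molecules to compare.

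**Figure D4:**
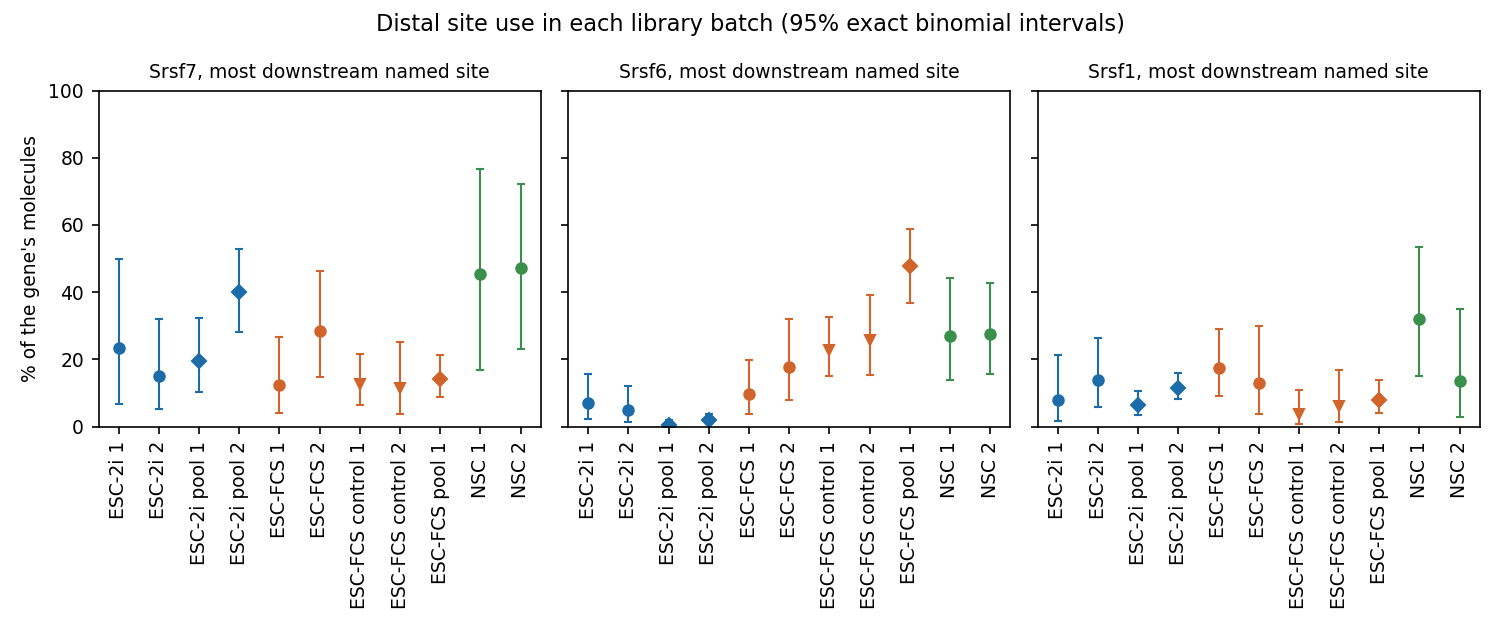
Percentage of molecules at the most downstream site of Srsf7, Srsf6 and Srsf1 in each of the 11 library batches, with exact binomial 95% intervals. Circles are batches of the 3 populations, triangles ESC-FCS control cells and diamonds pools of 48 cells. Srsf6 used site 3 in 0.532 to 7.04% of molecules in ESC-2i libraries and in 9.68 to 47.7% in ESC-FCS libraries, and both NSC batches of Srsf7 lay at 45.5 and 47.1%.

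Ends that the deposited classes place in an intron or an upstream exon were rare in the SR genes. By the deposited class of each site, 8 of 809 molecules ended in an intron or an upstream exon in ESC-2i (0.989%, 0.428 to 1.94) and 4 of 696 in ESC-FCS (0.575%, 0.157 to 1.46), with 6 of 480 in NSC (1.25%, 0.460 to 2.70). Over all genes the shares were 2.44%, 2.98% and 3.24%, each above the upper bound for the SR genes. The share was 0.214% in the control cells against 1.53% over all genes, 0.273% in the ESC-FCS pool against 1.36%, and 0.676% in both ESC-2i pools together against 1.21%. Ends inside the last exon, in the deposited class for sites there that are away from an annotated end, took a larger share in the SR genes. The proximal site of Srsf7 is in that class, although GENCODE M21 has a transcript end 2 nt from it. In ESC-2i 26.0% of SR molecules (23.0 to 29.1) were in that class, against 15.1% over all genes, and in ESC-FCS 28.0% (24.7 to 31.5) against 15.6%. In NSC the SR share was 17.9% (14.6 to 21.6) against 14.0%.

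The 18 early molecules came from 5 of the 10 genes. Of 6063 genes, 45.4% had any and the median share per gene was 0%, so the lower pooled share does not set the SR genes below a typical gene. Srsf11 had 9 of them in 166 molecules (5.42%, 2.51 to 10.0), Srsf4 had 3 of 37, Srsf10 2 of 56, and Srsf3 and Srsf7 2 each. Srsf1, Srsf2, Srsf5, Srsf6 and Srsf9 had 0, which at 3 molecules of the total, the floor used here for a count of 0, allows shares of up to 1.30%, 1.44%, 1.46%, 0.875% and 2.75%. Just 1 early site had at least 3 molecules, in an upstream exon of Srsf11.
Srsf11 early, chr3:158012781-158012810, minus strand: gaaagctgtctcgctcaccatccccaagga
Srsf11 upstream, chr3:158016321-158016350, minus strand: agaaggtcaaggagcacatccaaagccagg
Srsf11 main, chr3:158010922-158010951, minus strand: aagactttgatAATAAAacccttaaactca
These sequences are shown because the first 2 sites lack both signals in the 40 bases searched, whereas the main site has AATAAA. The early site had 2 molecules in ESC-2i cells and 2 in NSC. It recurred in the ESC-2i pools, with 9 of 51 molecules (17.6%, 8.40 to 30.9) and 6 of 81 (7.41%, 2.77 to 15.4), but had 0 in each of the 5 serum libraries, where the same floor allows shares of up to 6.12% to 13.0%. It lies 1 base before the end of an exon, and the 15 bases that follow in the spliced transcript hold 10 A. The upstream site, with 11 molecules in the 3 populations, lies 3 bases before the end of an exon and is followed there by 9 A in 15. Of 3794 sites of all genes with that many bases after them, the median was 4 A, and 7.12% had at least 10. The main site was followed by 3 A. The part of these A-rich stretches in the 2 ends was not tested. The upstream site also lies 1 nt from the annotated end of a transcript with a retained intron.

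Within a population, the test of Brennecke and colleagues asks whether a gene varies between cells by more than the technical noise fitted on spike-in transcripts plus a squared coefficient of variation (CV2) of 0.25. At an adjusted p below 0.1 it called 0 of the 9 SR genes tested in ESC-2i, where 0.608% of 3616 genes were called, 0 of 9 in ESC-FCS, where 3.36% of 2026 were, and 2 of 8 in NSC, where 10.7% of 1157 were. No SR gene had an unadjusted p below 0.05 in ESC-2i or ESC-FCS, but on simulated counts of ESC-2i the test missed most genes of modest added variance. Genes below a mean of 0.5 were not tested, which left out Srsf10 in ESC-2i, Srsf4 in ESC-FCS and both in NSC.

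In ESC-2i 2 of 9 had a CV2 above the technical value, in ESC-FCS 4 of 9 and in NSC 7 of 8. Over all genes tested the share above it rose in the same order, as SR genes next to that value show. Srsf6 had 0.315 against 0.313 in ESC-2i, where 39.8% of genes tested had a higher ratio of CV2 to technical value. It had 0.557 against 0.574 in ESC-FCS, where 51.3% had a higher ratio. Srsf3 had 0.497 against 0.512 in NSC, where 80.4% had a higher ratio. Srsf5 in ESC-2i was present in all 33 cells, with 1 to 7 molecules and a median of 3. Its CV2 was 0.194 against a technical 0.456, and 99.8% of genes tested had a higher ratio of these values. Srsf3 in ESC-2i had 0 to 19 molecules per cell, a median of 5 and a CV2 of 0.378 against 0.256. In ESC-FCS, Srsf7 had 0 to 10 molecules and the highest CV2 of the members tested, 1.43 against 0.818 (adjusted p = 0.873, Brennecke test with Benjamini-Hochberg adjustment over all genes tested).

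The 2 calls in NSC each rested on 1 cell. On simulated counts of NSC the test also made more false calls than its nominal rate where the added variance was modest. Srsf2 had 0 to 11 molecules per cell, a median of 0 and molecules in 20 of 41 cells, with a CV2 of 3.00 against 1.04 (adjusted p = 2.27e-04 by the same test). The next cell had 5 molecules. Without the highest cell the CV2 was 1.94 and the adjusted p was 0.681. Srsf7 had 0 to 4 molecules in NSC and molecules in 17 of 41 cells, with a CV2 of 3.10 against 1.59 (adjusted p = 0.0479 by the same test). Without the cell of the highest normalized count, its CV2 was 2.22 and its adjusted p was 1. With cell totals in place of size factors neither was called.

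**Figure D5:**
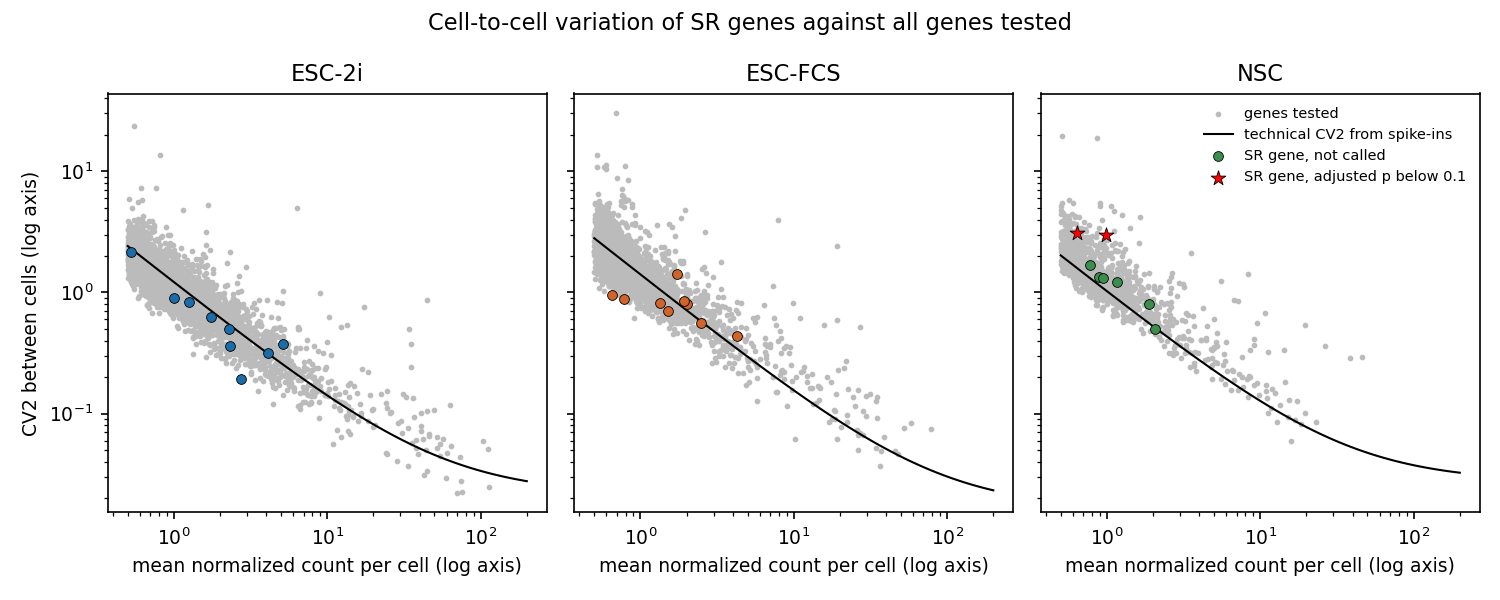
CV2 between cells against the mean normalized count per cell (both log axes) for all genes tested, with 1 panel per population. The line is the technical CV2 fitted on spike-in transcripts, filled points are SR genes and stars the 2 called in NSC, Srsf2 at a CV2 of 3.00 and Srsf7 at 3.10. In ESC-2i 7 of 9 SR genes lay on or below the line. Srsf6 lay just above it there, and 39.8% of all genes tested had a higher ratio of CV2 to the line.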

How the data were processed

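BATSeq counts molecules by molecular barcodes at the 3′ end. The authors aligned reads to GRCm38, removed A-rich and falsely primed reads, merged ends within 12 nt and deposited counts of molecules and reads per site and cell, and counts of molecules per gene for 107 cells. These counts were used as deposited. For the 144 cells, the single tables and the table of sites were identical. Each population's cells were pooled, and levels are molecules per 10000 molecules on genes, without antisense sites. In the separate libraries, ends within 12 nt of a site were assigned to it. Genes with at least 20 molecules over the 3 populations entered the folds. All 10 SR genes were named, with their sites of at least 10 molecules and the early site of at least 3, and pathway genes past 1.5-fold in both NSC comparisons. Genes, lists and rules were chosen with earlier results of these data known. The variance test was rewritten, with technical noise fitted on ERCC transcripts. Tested on simulated data, it missed most modestly variable genes in ESC-2i and made more false calls than its nominal rate in ESC-FCS and, where the added variance was modest, in NSC. Python 3.11.15, numpy 2.4.6, scipy 1.17.1 and pandas 2.3.3 were used. Library batches are those of the batch barcodes. Counting intervals are exact 95% intervals. Alternatives were other cells, batches, denominators, reads, site rules and margins.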

Additional observations from a re-analysis of the deposited data

How the results depend on the processing

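No paired analysis was possible because cells carry no shared replicate number and no result comes from a test between populations. Where a value changed with the setting, the cause was not tested unless stated. Counting error limits most values: a gene of 50 molecules has an interval of 1.01 to 1.79 around 1.36 molecules per 10000.

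Of 10 SR genes, the number past 1.5-fold between NSC and ESC-2i was 6 with reads in place of molecules, against 3. Between NSC and ESC-FCS it was 4 with batch 2 of both, 9 (all lower) per ERCC molecule and 4 with reads, against 2. Between ESC-FCS and ESC-2i it was 6 with batch 1 of both, 10 (all higher) per ERCC molecule and 5 with equal weight per cell, against 3. It was 5 and 6 between ESC-FCS control cells and ESC-2i pools 1 and 2, and 10 between the ESC-FCS pool and ESC-2i pool 1. Scaling per ERCC molecule moved the median log2 ratio of the genes with molecules in both populations from 0.02 to -0.28 (NSC against ESC-2i), from 0.04 to -1.30 (NSC against ESC-FCS) and from -0.05 to 0.99 (ESC-FCS against ESC-2i). By that scaling the ratio of Srsf9 in NSC against ESC-FCS turned to 0.718, and with batch 1 of both to 0.748.

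The number of genes with distal shares 10 points apart between NSC and ESC-2i was 1 with batch 2 of both and 5 with reads, against 3. There Srsf1 turned to -0.556 points in batch 2. Between NSC and ESC-FCS it was 1 with all 48 cells, 4 in batch 1 and 0 in batch 2, where fewer genes had enough molecules, against 2. Between ESC-FCS and ESC-2i it was 1 in batch 1, 3 in batch 2 and 3 with reads, against 0. It was 1 and 4 for control cells against ESC-2i pools 1 and 2, and 1 and 3 for the ESC-FCS pool, each of these lower in serum. Requiring the lesser site to hold 5% of the pair, chosen after seeing the data, left each of the 3 counts as it was, with 6 genes tested in place of 8.

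The early-end share with reads was 0.340% for ESC-2i, 0.134% for ESC-FCS and 0.291% for NSC. With sites of at least 3 molecules it was 0.255%, 0% and 0.433%. With introns alone it was 0.144% in ESC-FCS and 0.208% in NSC, and in batch 2 of ESC-FCS it was 0% (0 of 294 molecules). In ESC-FCS 1 gene was called variable with no CV2 margin and 1 with no minimum mean. In NSC the 2 calls became 1 with a margin of 0.5, 1 in cells of at least 2000 molecules, 1 in batch 1, 0 in batch 2, 0 with cell totals, 1 with all spike-in species, and 0 without each gene's highest cell, which was chosen after seeing the data.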
